A study of Mus musculus with 8 samples.

Results

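The transcripts of 32 genes that shorten, uncap and degrade messenger RNA were followed in Lewis lung carcinoma (LLC) tumors grown from cancer cells labelled wild-type or knocked out for Argonaute 2 (Ago2). The members are a list of names, and the list was drawn up with earlier results of these data known. They code for the CCR4-NOT complex (11 genes), its TOB and BTG adaptors (4), the PAN2-PAN3 complex and PARN (3), poly(A)-binding proteins (2), decapping and processing body (P-body) factors (11) and the exonuclease XRN1 (1). All 32 were found among the 55487 genes of the count table, and all 32 were among the 16061 genes with enough counts to be tested. RNA was sequenced from 8 subcutaneous tumors, 4 grown from wild-type LLC cells and 4 from LLC cells labelled Ago2 knock-out (ΔAgo2). LLC is a mouse lung cancer line. The tumors were taken at day 12 from syngeneic C57BL/6J mice, which the study describes as female, bought at 6 to 8 weeks of age and acclimated before engraftment, and each tumor came from another mouse. The mice were not edited, so host cells in a ΔAgo2 tumor keep Ago2. The knock-out line was made with a lentiviral CRISPR guide, puromycin selection and cloning from a single cell, so that the ΔAgo2 tumors stand for 1 clone. The study made this comparison to learn how Ago2 favors tumor growth.

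Ago2 loaded with a small RNA binds TNRC6 proteins, which recruit the PAN2-PAN3 and CCR4-NOT deadenylases to the target. These enzymes remove the poly(A) tail that poly(A)-binding proteins cover. A deadenylated messenger is then uncapped by DCP2 with the help of its cofactors, many of which gather in P-bodies, and is degraded from its 5' end by XRN1. The genes measured here are thus the machinery downstream of Ago2 in microRNA repression, and they serve other decay routes as well.

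Total gene counts ran from 7903288 (wild-type tumor 4) to 268564145 (ΔAgo2 tumor 4), and the smallest count of any of the 32 genes in a library was 66, for Xrn1 in wild-type tumor 4. A count of 0 in a library allows up to 3 counts of its total, which limits counting error only. Of 8 markers of lung carcinoma and epithelium, only Krt8 and Krt18 were high, at 231 to 501 and 257 to 845 CPM (counts scaled to a common library total). Far lower were Epcam (0.736 to 4.36 CPM), Krt7 (0.149 to 1.51), Krt19 (2.02 to 9.89) and Cdh1 (2.44 to 14.0). Nkx2-1, a marker of lung epithelium, had 0 counts in all 8 libraries and Sftpc reached at most 0.0477 CPM. Ago2 itself stood at 154 ± 28.9 CPM (SD, n = 4) in wild-type tumors and 239.5 ± 99.2 CPM (SD, n = 4) in ΔAgo2 tumors. The fitted log2 fold change came to 0.64 (SE 0.30), at an adjusted p of 0.205 by the quasi-likelihood test of edgeR, adjusted over all genes tested, which is used throughout unless another is named. The Ago2 transcript was thus not called lower in ΔAgo2 tumors and does not check the labels, and every direction given here rests on them. All 8 libraries carry batch label 1.

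As described further on, the fold changes of these genes followed the base composition of their transcripts. The first 150 coding bases of 4 CCR4-NOT genes are shown, namely those with the highest and the lowest fold change and a paralog pair that differs in GC. Capitals mark a G or C at the third position of a codon, the position at which codons for one amino acid differ most. The stretches are read 5' to 3' on the coding strand from GENCODE M21 (GRCm38), and each spans introns in the genome. Cnot6 (exons 2 to 3, chr11:49689314-49702652, minus strand) had the highest log2 fold change of the 32. Cnot3 (exons 2 to 4, chr7:3650851-3651324, plus strand) had the most negative fold change. Cnot7 (exons 1 to 2, chr8:40507616-40510131, minus strand) and Cnot8 (exons 2 to 3, chr11:58109650-58111292, plus strand) are paralogs whose fold changes had opposite signs before the GC trend was removed.
Cnot6: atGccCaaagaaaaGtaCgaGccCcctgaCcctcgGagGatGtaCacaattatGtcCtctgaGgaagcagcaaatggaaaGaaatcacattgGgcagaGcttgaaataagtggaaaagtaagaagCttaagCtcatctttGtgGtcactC
Cnot3: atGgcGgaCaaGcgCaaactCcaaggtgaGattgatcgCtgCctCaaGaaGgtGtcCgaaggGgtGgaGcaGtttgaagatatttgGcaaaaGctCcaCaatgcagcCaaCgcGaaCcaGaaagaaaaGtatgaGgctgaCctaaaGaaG
Cnot7: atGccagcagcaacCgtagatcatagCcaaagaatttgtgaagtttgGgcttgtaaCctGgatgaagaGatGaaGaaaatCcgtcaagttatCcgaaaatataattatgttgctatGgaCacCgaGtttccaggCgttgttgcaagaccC
Cnot8: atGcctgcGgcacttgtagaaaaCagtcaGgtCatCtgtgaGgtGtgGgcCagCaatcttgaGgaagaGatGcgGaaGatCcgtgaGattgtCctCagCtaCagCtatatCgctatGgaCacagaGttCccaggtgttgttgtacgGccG
Of 50 codons in each stretch, 22 ended in G or C in Cnot6, 32 in Cnot3, 17 in Cnot7 and 30 in Cnot8. Cnot7 and Cnot8 were 70% identical over these bases. They differed at 45 bases, of which 28 lay at the third position of a codon. At 27 of the 45 Cnot7 had A or T and Cnot8 had G or C, against 13 the other way. Over the whole coding sequence, G or C took 42.2% of the third positions in Cnot6, 65.6% in Cnot3, 42.1% in Cnot7 and 63.7% in Cnot8.

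Of the 32 genes, 1 passed an adjusted p of 0.05 between genotypes, Dcp2, which was higher in ΔAgo2 tumors. This is 3.12% of the genes, against 3.49% of all genes tested, 1.36% higher and 2.12% lower, and is no more than the background. An unadjusted p under 0.05 was reached by 6 of the 32 (Dcp2, Cnot6, Cnot6l, Pan3, Xrn1 and Cnot3), against 26.7% of all genes. The values of the 4 wild-type and 4 ΔAgo2 tumors did not overlap for 5 of the 32 (15.6%), against 16.4% of all genes. Dcp2, Cnot6, Cnot6l and Pan3 lay wholly higher in ΔAgo2 tumors, where 8.05% of all genes did so, and Cnot3 lay wholly lower, where 8.36% did so. The fold change was above 0 for 22 and below 0 for 10, with a median log2 fold change of 0.13 over the 32 and 0.04 over all genes tested. Of the 22, 2 (Parn and Dcp1a) fell to just under 0 with DESeq2 size factors as the scaling, and on the TPM scale (counts divided by gene length and scaled to a common total) Cnot11, Tob1, Tob2 and Pabpc1 moved above 0, which made 26 of the 32. On the TPM scale the median of all genes was itself raised, to 0.21 with a pseudocount of 1 and 0.28 with a pseudocount of 0.1. In whole tumors fewer cells of a type and less RNA per cell cannot be told apart.

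**Figure D1:**
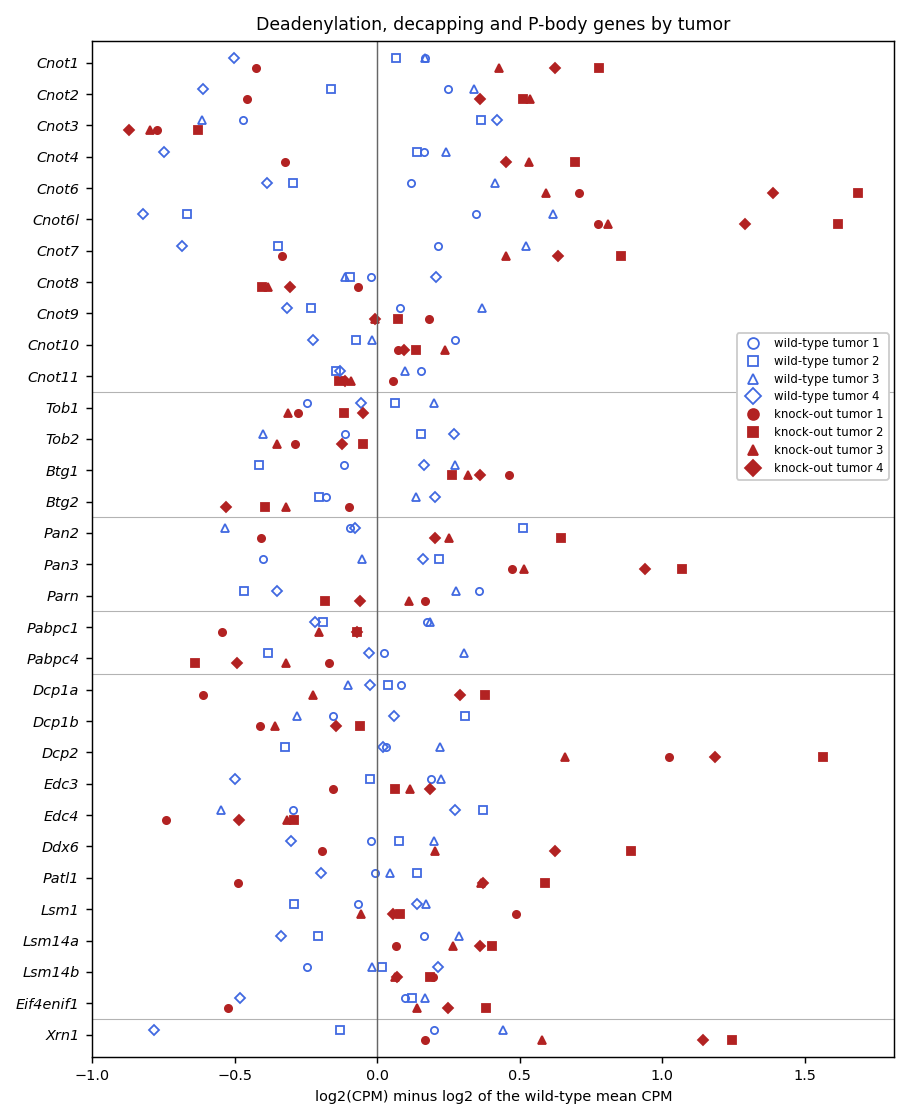
Level of each of the 32 genes in every tumor, as log2(CPM) minus the log2 of the wild-type mean CPM (x axis), with genes in rows ordered by role, open blue symbols for wild-type and filled red symbols for ΔAgo2 (knock-out) tumors. Only Dcp2, Cnot6, Cnot6l, Pan3 (right) and Cnot3 (left) have red symbols wholly to one side of the blue ones, and knock-out tumor 1 often lies with the wild-type tumors.

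Compared per length, as TPM, the most abundant of the 32 was Pabpc1, the main cytoplasmic poly(A)-binding protein, at 1125 ± 304 TPM (SD, n = 4) in wild-type and 1150 ± 370 TPM (SD, n = 4) in ΔAgo2 tumors. Pabpc4 followed at 134 ± 36.4 and 116 ± 12.6 TPM, and Btg1 at 98.9 ± 22.9 and 148 ± 24.1 TPM. Pabpc4 lay above Btg1 in all 4 wild-type tumors and below it in all 4 ΔAgo2 tumors. This pair was not tested, and neither gene was called (edgeR adjusted p of 0.234 and 0.268). The transcript of Pabpc4 is 53.3% GC and that of Btg1 44.8%. Their fitted log2 fold changes of -0.39 and 0.35 came to -0.25 and -0.10 after the GC trend was removed. At the other end were Pan3 at 4.96 ± 1.01 and 10.3 ± 3.90 TPM, Dcp1b at 4.12 ± 0.965 and 4.18 ± 1.26 TPM, and Xrn1 at 2.40 ± 1.03 and 5.12 ± 2.46 TPM. The catalytic decapping subunit Dcp2 and the last exonuclease Xrn1 thus stood far below the poly(A)-binding proteins in both genotypes. All values that follow are CPM scaled by the trimmed mean of M-values (TMM), and fold changes are ΔAgo2 minus wild-type.

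The CCR4-NOT complex carries a pair of exonuclease types, the CCR4-type subunits Cnot6 and Cnot6l and the CAF1-type subunits Cnot7 and Cnot8. Cnot6 (ENSMUSG00000020362.13, chr11:49671503-49712723) stood at 46.2, 34.7, 56.7 and 32.5 CPM in the wild-type tumors (1 to 4 in order) and at 69.4, 137, 64.1 and 111 CPM in ΔAgo2 tumors 1 to 4. Every ΔAgo2 tumor lay above every wild-type tumor, with tumors 2 and 4 the highest. The log2 fold change of 1.16 (SE 0.29) missed the threshold, with adjusted p = 0.0537 (edgeR). Cnot6l (ENSMUSG00000034724.18, chr5:96070333-96164171) stood at 31.9, 15.8, 38.5 and 14.2 CPM in wild-type and at 42.9, 76.9, 43.9 and 61.4 CPM in ΔAgo2 tumors. The groups did not overlap, although wild-type tumor 3 came close to ΔAgo2 tumors 1 and 3. Its log2 fold change came to 1.16 (SE 0.35), with adjusted p = 0.0842 (edgeR). Both genes passed the threshold with DESeq2's Wald test (adjusted p of 0.00487 and 0.0187) and neither did after the GC trend was removed.

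The CAF1-type pair had fold changes of opposite sign, neither of which passed the test, and after the GC trend was removed both were below 0 (Cnot7 -0.39, Cnot8 -0.41). Cnot7 stood at 28.1, 19.0, 34.8 and 15.1 CPM in wild-type and 19.2, 43.9, 33.1 and 37.6 CPM in ΔAgo2 tumors, a log2 fold change of 0.46 (SE 0.32, edgeR adjusted p = 0.362). ΔAgo2 tumors 1 and 3 lay within the wild-type range. Cnot8 stood at 58.6, 55.6, 55.0 and 68.7 CPM in wild-type and 56.7, 44.99, 45.6 and 48.1 CPM in ΔAgo2 tumors, a log2 fold change of -0.28 (SE 0.18, edgeR adjusted p = 0.315). Here ΔAgo2 tumor 1 was the one that overlapped with wild-type tumors.

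Cnot3, which with Cnot2 forms the NOT module on the scaffold Cnot1, was the lowest in fold change. Cnot3 (ENSMUSG00000035632.16, chr7:3645268-3661109) stood at 91.0, 163, 82.4 and 169 CPM in wild-type and at 73.9, 81.6, 72.6 and 68.9 CPM in ΔAgo2 tumors. All ΔAgo2 values were lower, but wild-type tumor 3 was less than 1 CPM above ΔAgo2 tumor 2, and wild-type tumors 2 and 4 stood apart from wild-type tumors 1 and 3. The difference came to -0.76 on the log2 scale (SE 0.26, edgeR adjusted p = 0.106). It passed with DESeq2's Wald test at -0.79 with an adjusted p of 0.0483. The scaffold Cnot1 had a log2 fold change of 0.42 ± 0.27 (SE) and Cnot2 one of 0.29 ± 0.28. Cnot4, an E3 ubiquitin ligase linked to the complex, had 0.38 ± 0.28, and Cnot9, which together with Cnot1 binds the tryptophans of TNRC6, had 0.06 ± 0.20. Cnot10 and Cnot11, which form a module of their own, had 0.14 ± 0.18 and -0.07 ± 0.17. In all 6 the groups overlapped, and edgeR adjusted p-values ran from 0.334 to 0.864. Of the 11 CCR4-NOT genes, 0 passed the edgeR test (3.49% of all genes) and 3 were at an unadjusted p under 0.05 (26.7% of all genes). DESeq2 called 3 (14.3% of all genes) and limma voom 2 (27.9% of all genes). The median log2 fold change of the 11 was 0.29, with 8 above 0 and 3 below, and it turned to -0.22, with 3 above 0 and 8 below, after the GC trend was removed.

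**Figure D2:**
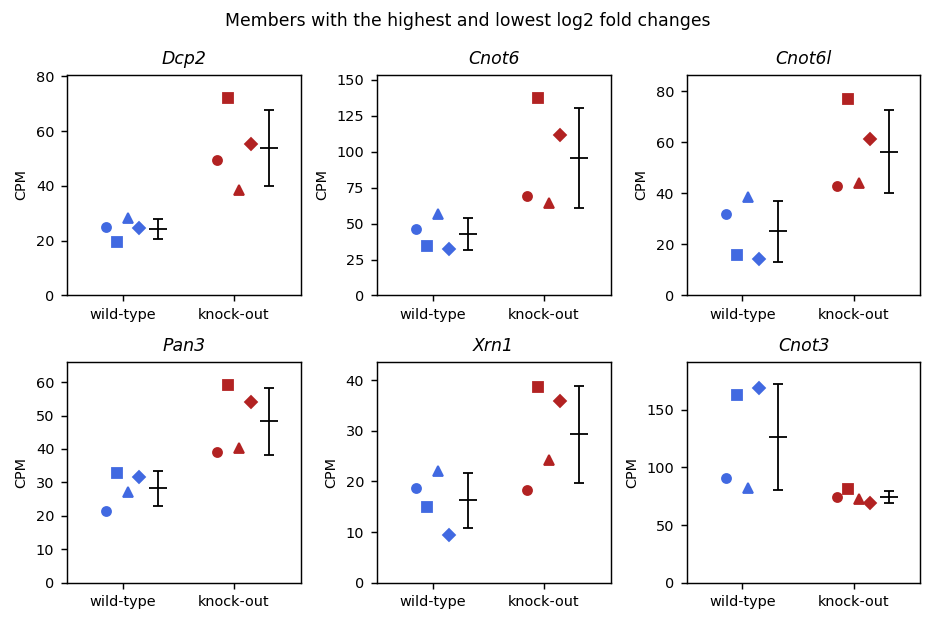
CPM (y axes, from 0) of the 5 genes with the highest log2 fold changes and of Cnot3, the lowest, in each wild-type (blue) and ΔAgo2 (knock-out, red) tumor, with marker shapes for tumors 1 to 4 and bars for the mean ± SD. Dcp2, Cnot6, Cnot6l and Pan3 separate upward with ΔAgo2 tumor 2 highest, Xrn1 overlaps through ΔAgo2 tumor 1, and Cnot3 is low and tight in ΔAgo2 tumors.

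TOB and BTG proteins are antiproliferative adaptors that bind the CAF1-type subunits, and TOB proteins also bind poly(A)-binding protein. By edgeR 0 of the 4 passed the test (3.49% of all genes) and 0 reached an unadjusted p under 0.05 (26.7% of all genes). DESeq2 called 0 (14.3% of all genes) and limma voom 0 (27.9% of all genes). Btg1 stood at 183, 149.1, 240 and 222 CPM in wild-type and at 273, 238, 248 and 255 CPM in ΔAgo2 tumors, a log2 fold change of 0.35 (SE 0.20). Btg2, a p53 target, stood at 22.4, 22.0, 27.9 and 29.2 CPM in wild-type and at 23.7, 19.3, 20.3 and 17.6 CPM in ΔAgo2 tumors, a log2 fold change of -0.33 (SE 0.20). Each gene alone overlapped between groups, by wild-type tumor 3 for Btg1 and by ΔAgo2 tumor 1 for Btg2. Tob1 and Tob2 had log2 fold changes of -0.19 ± 0.19 and -0.20 ± 0.20 (SE). After the GC trend was removed Btg1 came to -0.10, Btg2 to -0.43, Tob1 to -0.58 and Tob2 to 0.11.

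A ratio of paralogs within a tumor does not depend on the scaling of libraries but can move with the GC content of the pair, and 7 such pairs were tested by exact permutation (two-sided, 70 assignments). The log2 ratio of Btg1 to Btg2 was 3.03, 2.76, 3.10 and 2.93 in wild-type and 3.53, 3.62, 3.61 and 3.86 in ΔAgo2 tumors. This was the only one of the 7 ratios whose groups did not overlap. The mean moved from 2.95 ± 0.149 to 3.65 ± 0.143 (SD, n = 4), a 1.62-fold higher ratio, with an exact p of 0.0286, the smallest this design allows, and 0.2 after Benjamini-Hochberg adjustment over the 7 pairs. The transcript of Btg1 is 44.8% GC and that of Btg2 49.7%, and the difference between their fitted log2 fold changes fell from 0.68 to 0.32 after the GC trend was removed. The log2 ratio of Cnot7 to Cnot8 moved from -1.36 ± 0.657 to -0.60 ± 0.663 (SD, n = 4), with an exact p of 0.171 and an adjusted p of 0.6. ΔAgo2 tumor 1 (-1.56) stood there among the wild-type tumors, and the difference between the fitted log2 fold changes of this pair fell from 0.74 to 0.01 after the GC trend was removed. Differences for the other pairs ran from -0.12 (Cnot6 to Cnot6l) to 0.19 (Dcp1a to Dcp1b), with exact p-values of 0.343 to 1. For the CCR4-type pair, both of which had a log2 fold change of 1.16, the difference in ratio lay within the spread of the tumors. Removal of the GC trend did not shrink every difference between fitted log2 fold changes. It went from 0.012 to -0.69 for Tob1 and Tob2, from 0.15 to -0.26 for Lsm14a and Lsm14b, and from 0.18 to -0.27 for Pabpc1 and Pabpc4. Dcp1a and Dcp1b went from 0.25 to 0.21, and Cnot6 and Cnot6l from 0.0071 to 0.027.

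**Figure D3:**
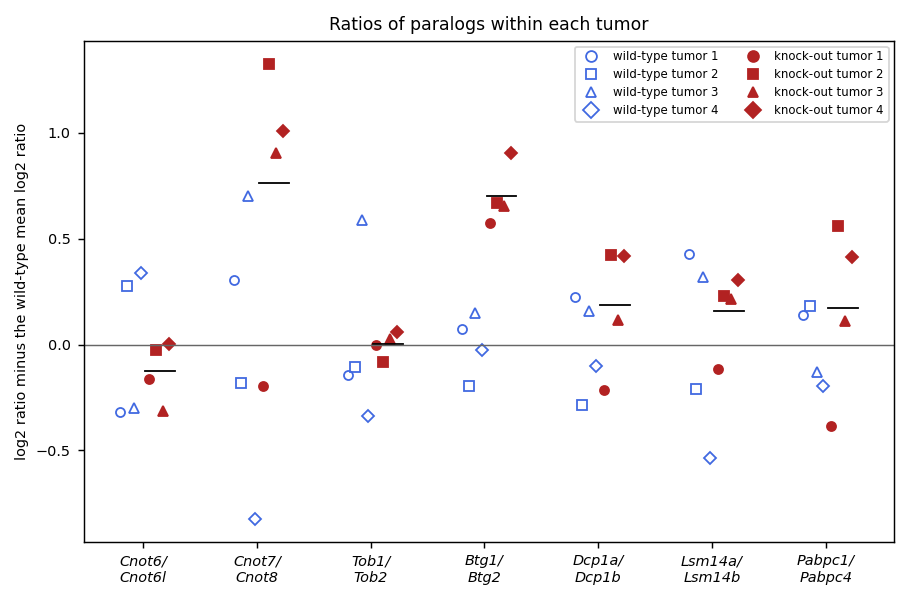
Log2 ratio of each of 7 paralog pairs in every tumor, minus the mean of the wild-type tumors (y axis), with open blue symbols for wild-type tumors, filled red symbols for ΔAgo2 (knock-out) tumors and a black line at the ΔAgo2 mean. All 4 ΔAgo2 tumors lie above the wild-type tumors for Btg1/Btg2 only, and ΔAgo2 tumor 1 lies low for Cnot7/Cnot8.

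PAN2-PAN3 starts the shortening of long poly(A) tails, with PAN2 as the nuclease and PAN3 as the subunit that binds TNRC6 and poly(A). Pan3 (ENSMUSG00000029647.15, chr5:147430161-147548502) stood at 21.4, 32.8, 27.2 and 31.5 CPM in wild-type and at 39.2, 59.3, 40.4 and 54.1 CPM in ΔAgo2 tumors. The groups were wholly apart. Pan3 had a log2 fold change of 0.78 (SE 0.22, edgeR adjusted p = 0.0759), and it passed with DESeq2's Wald test at an adjusted p of 0.0215. The fold change came to 0.37 after the length trend was removed and to 0.15 after the GC trend was removed (edgeR adjusted p = 0.785). Pan2 had a log2 fold change of 0.22 ± 0.28 and Parn, a separate poly(A)-specific nuclease, one of 0.01 ± 0.23 (SE), both with overlapping groups. Among the poly(A)-binding proteins, Pabpc1 ranged from 2360 to 3121 CPM in wild-type and from 1882 to 2614 CPM in ΔAgo2 tumors, and Pabpc4 from 155 to 251 and from 130 to 181 CPM. Their log2 fold changes were -0.21 ± 0.22 and -0.39 ± 0.20, with edgeR adjusted p-values of 0.554 and 0.234. Pabpc1 came to 0.01 on the TPM scale.

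Dcp2, the enzyme that removes the cap, was the 1 gene of the 11 decapping and P-body genes that passed the test. This is 9.09% of the 11, against 3.49% of all genes called and 1.36% called higher. DESeq2 and limma voom each called 1 of the 11 as well, against 14.3% and 27.9% of all genes. Dcp2 (ENSMUSG00000024472.9, chromosome 18) stood at 24.9, 19.5, 28.4 and 24.7 CPM in wild-type and at 49.5, 72.0, 38.4 and 55.3 CPM in ΔAgo2 tumors. The lowest ΔAgo2 tumor lay above the highest wild-type tumor, and ΔAgo2 tumor 2 was again the highest. The means were 24.3 ± 3.67 and 53.8 ± 14.0 CPM (SD, n = 4), a 2.21-fold rise (log2 fold change 1.15, SE 0.23, edgeR adjusted p = 0.0293). The call was kept in 11 of 20 alternatives, over which the log2 fold change ran from 0.53 to 1.33 and the adjusted p from 0.000299 to 0.209. It was lost without wild-type tumor 2 (adjusted p of 0.10), wild-type tumor 4 (0.0598), ΔAgo2 tumor 2 (0.0964) or ΔAgo2 tumor 4 (0.0979), at log2 fold changes of 0.96 to 1.16. Removal of each library's GC trend lowered it to 0.53 (SE 0.20, edgeR adjusted p = 0.166).

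The partners of Dcp2 had smaller fold changes. Its activators Dcp1a and Dcp1b had log2 fold changes of 0.01 ± 0.24 and -0.23 ± 0.23 (SE), and the scaffolds Edc3 and Edc4 had 0.05 ± 0.21 and -0.45 ± 0.24. Edc3 shares 22.1% of its exon bases with Clk3 on the opposite strand and Edc4 8.33% with Nrn1l on the same strand, which makes their counts uncertain. The helicase Ddx6, which binds CNOT1 and 4E-T, ranged from 84.7 to 120 CPM in wild-type and from 91.3 to 194 CPM in ΔAgo2 tumors, a log2 fold change of 0.44 ± 0.25. Patl1, which bridges DDX6 and the LSM ring, had 0.26 ± 0.23, and Lsm1, the ring subunit particular to decapping, had 0.16 ± 0.21. The P-body proteins Lsm14a and Lsm14b had 0.28 ± 0.20 and 0.13 ± 0.17, and Eif4enif1 (4E-T), which ties the cap-binding protein eIF4E to the decay machinery, had 0.10 ± 0.24. For these 10 genes the groups overlapped and edgeR adjusted p-values ran from 0.247 to 0.978. Over the 11 decapping and P-body genes the median log2 fold change was 0.13, and -0.0049 after the GC trend was removed.

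Xrn1 (ENSMUSG00000032410.13, chr9:95954760-96057803), the cytoplasmic 5' to 3' exonuclease, stood at 18.7, 14.9, 22.1 and 9.46 CPM in wild-type and at 18.3, 38.6, 24.3 and 36.0 CPM in ΔAgo2 tumors. ΔAgo2 tumors 2, 3 and 4 lay above all wild-type tumors and ΔAgo2 tumor 1 did not. On the log2 scale this was 0.84 (SE 0.31, edgeR adjusted p = 0.130). It came to 0.40 after the length trend was removed and to 0.08 after the GC trend was removed (edgeR adjusted p = 0.819).

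Across the 32 genes the fold change followed the GC content of the transcripts. Spearman's rho between log2 fold change and transcript GC was -0.84 over the 32 genes and -0.57 over 15906 genes, where all points come from the same 8 libraries. All 11 genes with a transcript GC under 45% had a fold change above 0, among them Cnot6l (39.3%), Cnot7 (39.8%), Cnot6 (41.0%), Xrn1 (41.2%), Dcp2 (43.2%) and Pan3 (43.9%). All 4 genes over 53% had one below 0, namely Pabpc4 (53.3%), Tob2 (54.9%), Cnot3 (55.2%) and Edc4 (56.0%), of which Tob2 was above 0 on the TPM scale, at 0.04. The relation held for coding sequence (-0.75), for the third position of codons (-0.73) and, less steeply, for the 3' untranslated region (-0.50). It was 0.06 for coding length. Exon length gave 0.52 over the 32 genes and 0.16 over all genes, and the 32 genes were longer (median 6238 against 3924 bases) and lower in GC (median 47.5% against 50.2%) than all genes tested.

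**Figure D4:**
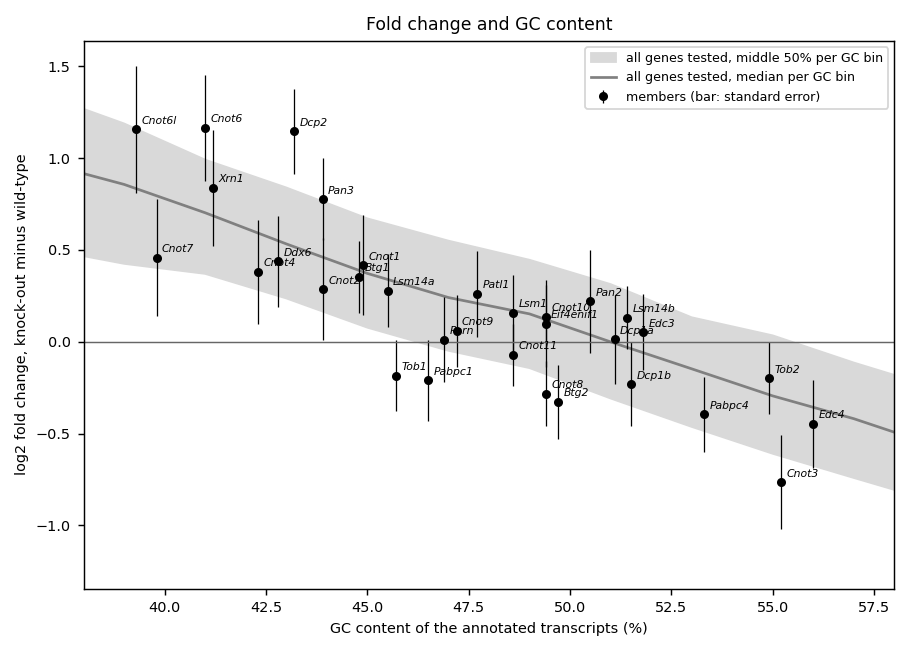
Log2 fold change (knock-out minus wild-type, y axis) against transcript GC content (x axis, percent) for the 32 genes, with standard errors, over the median (line) and middle 50% (band) of all genes tested in bins of 2 percentage points. Counted by bin, 25 of the 32 genes lie in the band, Dcp2 and Cnot6 lie above it, and Cnot3, Cnot8, Tob1, Btg2 and Pabpc1 lie below it.

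Set beside genes of like GC, few of the 32 stood out. In bins of 2 percentage points, 25 lay within the middle 50% of all genes, 2 above and 5 below. Dcp2 (1.15, against a bin median of 0.53) and Cnot6 (1.16 against 0.70) were the 2 above. Cnot3 (-0.76 against -0.29), Cnot8 (-0.28 against 0.15), Btg2 (-0.33 against 0.15), Tob1 (-0.19 against 0.37) and Pabpc1 (-0.21 against 0.24) were the 5 below. When each library's GC trend was removed as an offset, rho fell to -0.06 over the 32 genes and 0.02 over all genes. This fall follows from the removal itself, because the trends were fitted to these same data. With the trend removed, 0 of the 32 were called against 4.12% of all genes. At an unadjusted p under 0.05 there were 9 of the 32, against 20.7% of all genes. The fold change was then above 0 for 12 and below 0 for 20, with a median of -0.07. It kept its sign in 20 genes, changed it in 12 and became smaller in size in 22. The highest value was that of Dcp2 (0.53), followed by Cnot6 (0.36 ± 0.16) and Cnot6l (0.33 ± 0.13), and the lowest were Tob1 (-0.58 ± 0.19, edgeR adjusted p of 0.123) and Pabpc1 (-0.52 ± 0.16, edgeR adjusted p of 0.105).

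**Figure D5:**
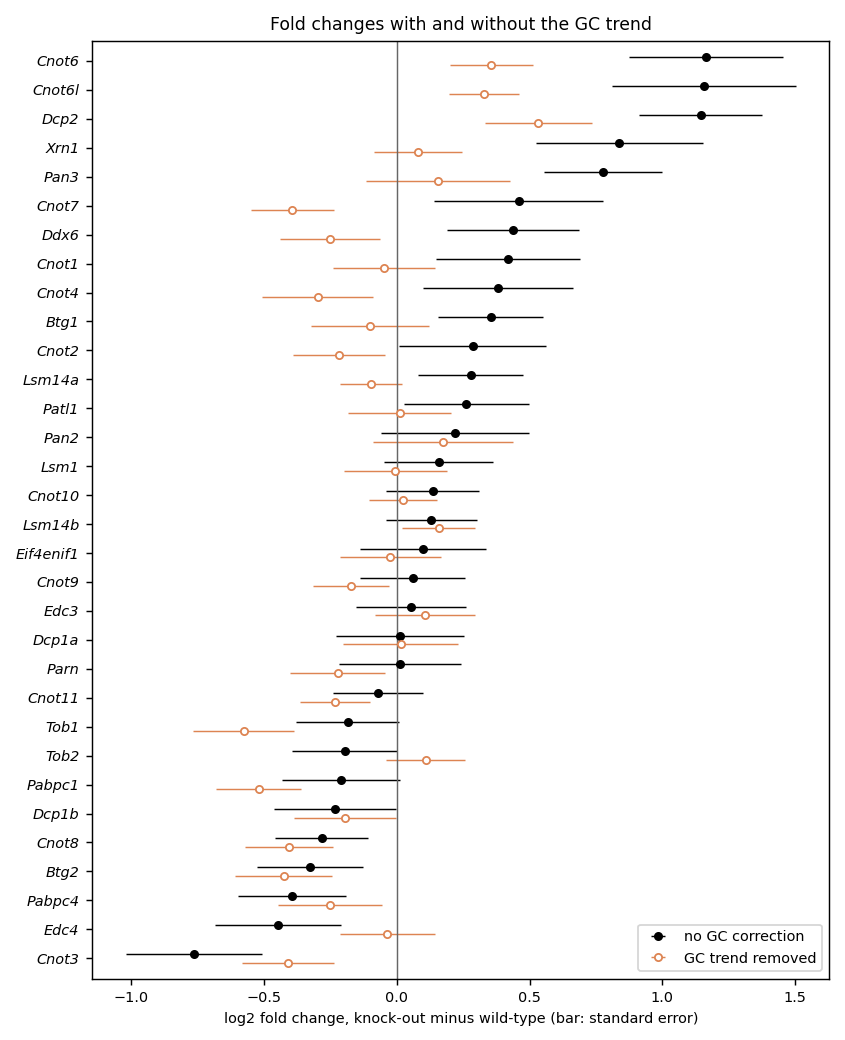
Log2 fold change (x axis, bars for standard errors) of the 32 genes without GC correction (black) and after each library's trend on GC content was removed (open orange), with genes in rows from the highest to the lowest uncorrected value. The range narrows from -0.76 to 1.16 down to -0.58 to 0.53, and Cnot6, Cnot6l and Dcp2 remain the 3 highest.

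The relation to GC was also followed tumor by tumor, in the same values from which the fold changes come. Each tumor's deviation from the mean of all 8 was correlated with GC over the 32 genes, which share 1 library within each value. For the wild-type tumors, 1 to 4 in order, Spearman's rho was 0.31, 0.72, -0.20 and 0.80. For the ΔAgo2 tumors it was -0.14, -0.70, -0.65 and -0.78. Over 15906 genes it was -0.12, 0.61, -0.26 and 0.59 in wild-type and 0.00034, -0.59, -0.42 and -0.56 in ΔAgo2 tumors. Wild-type tumors 2 and 4 thus stood opposite to ΔAgo2 tumors 2, 3 and 4, with wild-type tumors 1 and 3 and ΔAgo2 tumor 1 between them. ΔAgo2 tumor 1 was the lowest of its group for 18 of the 32 genes and ΔAgo2 tumor 2 the highest for 19. Wild-type tumor 4, the shallowest library, was the lowest of its group for 15. Whether this order comes from the libraries or from the tumors was not tested.

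Markers of other cell types were counted beside these genes. Of 12 marker lists, 2 had summed levels that did not overlap between groups, where 16.4% of all genes taken singly did not overlap. The 6 fibroblast genes, all measured and none at 0, summed to 4841 to 7167 CPM in wild-type and 2200 to 4576 CPM in ΔAgo2 tumors. The 8 skeletal muscle genes, none at 0 in all libraries, summed to 247 to 3486 CPM in wild-type and 49.6 to 204 CPM in ΔAgo2 tumors. The upper end is that of wild-type tumor 3, without which the wild-type tumors reached 465 CPM and still lay above the ΔAgo2 tumors. For the other 10 lists the groups overlapped. The macrophage list did so only through ΔAgo2 tumor 1, at 2066 CPM. Without that tumor it summed to 840 to 1005 CPM in ΔAgo2 and 1267 to 1500 CPM in wild-type tumors. ΔAgo2 tumor 1 also had the highest pan-leukocyte (1237 CPM) and T cell (34.4 CPM) sums of all tumors and the lowest fibroblast sum. Of all 12, the keratinocyte list alone held genes that passed the test, 2 of 6, where 1.36% of all genes were called higher. Both were higher in ΔAgo2 tumors, namely Krt10 (2.06, edgeR adjusted p of 0.046) and Flg2 (2.41, edgeR adjusted p of 0.0437). The 6 keratinocyte genes summed to 10.3 to 556 CPM in wild-type, lowest in tumor 3, and 425 to 827 CPM in ΔAgo2 tumors. Their median log2 fold change was 1.43. The fibroblast and muscle lists were lower and these 2 keratinocyte genes higher where Dcp2, Cnot6, Cnot6l and Pan3 were higher, and the part of these cell types in the values of the 32 genes was not tested.

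Genes that act beside this machinery were counted in the same fit, in 9 lists. Among RNA-binding proteins and partners that act on messenger decay or stability, 3 of 17 tested genes (17.6%) were called. All 3 were higher in ΔAgo2 tumors, where 1.36% of all genes were called higher. The list was written with earlier results known, so the count is a description. They were Rc3h2 and Rc3h1 (roquins, which bind stem loops) with log2 fold changes of 1.34 and 1.25, and Tnrc6a, the partner of Ago2, with 1.20, at edgeR adjusted p-values of 0.0486, 0.0444 and 0.0475. After the GC trend was removed the edgeR adjusted p-values were 0.363, 0.0929 and 0.0691, and 0 of the 17 were called, against 4.12% of all genes. DESeq2's Wald test called 5 of the 17, all higher, against 14.3% of all genes. Limma voom with quality weights called 8, 7 higher and 1 lower, against 27.9% of all genes. In the other 8 lists 0 of 87 tested genes were called by edgeR, 12 by DESeq2's Wald test (which called 14.3% of all genes) and 20 by limma voom with quality weights (27.9% of all genes). The median log2 fold change was -0.01 for the exosome and SKI complex (16 tested, 1 at an unadjusted p under 0.05), -0.05 for nonsense-mediated decay (11 tested, 4 so), -0.14 for other LSM and decapping genes (10 tested, 2 so) and 0.33 for other deadenylases and tailing enzymes (10 tested, 3 so). It was 0.30 for cap-binding and stress granule genes (18 tested, 2 so). Btg3, the 1 gene tested of a list of further CCR4-NOT regulators, had -0.38. Immediate early genes, whose messengers are short-lived, had a median of -0.60 with 10 of 11 below 0 (3 at an unadjusted p under 0.05). The p53 targets had -0.29 with 7 of 10 below 0 (4 so). Of all 16061 genes tested, 26.7% were at an unadjusted p under 0.05. Below 0 were 7634 of them, or 8104 without the GC trend. After the GC trend was removed the medians were -0.21 for immediate early genes (7 of 11 below 0), -0.14 for p53 targets (5 of 10 below 0), -0.02 for cap-binding and stress granule genes and 0.14 for other deadenylases and tailing enzymes. The other medians were then -0.05 for the exosome and SKI complex, 0.02 for nonsense-mediated decay and -0.19 for other LSM and decapping genes. The RNA-binding proteins and partners had 0.16, and Btg3 had -0.71.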

How the data were processed

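RNA was measured in 8 tumors, 4 a group, grouped by the genotype in the sample labels. The authors deposited raw counts per gene and TPM values, which divide counts by gene length and scale each library to a common total. RNA was extracted with TRIzol, and libraries from a stranded, poly(A)-selecting Illumina kit were read from both ends, per the labels. The submitters' processing notes name STAR and mm10. For cultured cells the paper names rRNA removal by alignment, mm10 and featureCounts, and the same was assumed for tumors. The strand setting and the handling of reads that map to several places are not given in the sources used here, so genes with overlapping exons (10 of the 32) are uncertain.

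Identifiers were matched to GENCODE M21 (99.29% matched). Counts were filtered by filterByExpr, scaled by TMM and compared in edgeR 4.0.16 (R 4.3.3) by the quasi-likelihood test with Benjamini-Hochberg adjustment over all 16061 genes at 0.05, with no covariate, after the procedure was tested on simulated data. Log2 CPM used a prior count of 2. GC and length trends were estimated for each library from genes averaging 50 counts or more, and entered as offsets. TPM was tested by limma 3.58.1 for genes reaching 0.5 TPM in 4 or more libraries. Paralog ratios were compared by an exact permutation test (scipy 1.17.1). Alternatives were other scalings, no filter, DESeq2 1.42.0, limma voom, thinning to the shallowest library, a replicate block and leaving out each library. Depth ran from 7903288 to 268564145 counts, so low genes are measured least precisely in wild-type tumor 4. Replicate libraries differed beyond sampling noise in every pair (chi-square over its degrees of freedom, 42.8 to 808). All 32 genes were named with values or by range, and in other pathway lists the called genes, at most 3 a list. The genes, lists and sequences were chosen with earlier results of these data known, and the sequences shown were chosen after the GC relation was seen.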

Additional observations from a re-analysis of the deposited data

Results flagged for a closer look

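Within each group of 4 tumors, a value was picked out where its gap to the nearest other took most of the group's range (Dixon's test at 95%). Of 78 groups examined, 2 held such a value, where chance gives about 3.9. For Cnot4, wild-type tumor 4 had 15.3 CPM and the other wild-type tumors had 28.4 to 30.5 CPM. For Eif4enif1, the same tumor had 48.2 CPM and the others 72.0 to 75.6 CPM. Wild-type tumor 4 is the shallowest library, and the part of its depth in these values was not tested.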

How the results depend on the processing

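Of the 32 genes, 1 was called in the main comparison, and the same number under DESeq2 size factors, total counts and thinned counts. It was 3 with no count filter (3 higher), 5 by DESeq2's Wald test (4 higher, 1 lower), 6 by limma voom with quality weights (5 higher, 1 lower), 2 after removal of the length trend (2 higher) and 0 after removal of the GC trend or on log2(TPM + 1) and log2(TPM + 0.1). The numbers called among all genes moved too, from 560 to 2292 by DESeq2's Wald test, 4476 by limma voom, 1167 without the length trend, 983 with no count filter and 153 and 107 on the TPM scales. They were 566 with DESeq2 size factors, 417 with total counts, 487 of 12679 tested in thinned counts and 661 without the GC trend. Leaving out 1 tumor gave 0 to 3 called, all higher, 0 without wild-type tumor 2 or 4 or ΔAgo2 tumor 2 or 4, and 3 without wild-type tumor 3 (Dcp2, Cnot6 and Cnot6l) or ΔAgo2 tumor 1 (Dcp2, Cnot6 and Pan3). The share called among all genes moved with it, at 0.87% and 1.61% without wild-type tumors 2 and 4, 1.02% and 0.541% without ΔAgo2 tumors 2 and 4, and 5.68% and 11% in the fits that called 3. The median log2 fold change of 0.13 became -0.073 without the GC trend, -0.020 without the length trend, 0.35 and 0.36 on the TPM scales, and 0.082 to 0.16 when 1 tumor was left out.

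The labels do not say whether tumors of the 2 groups with the same replicate number were paired. Their deviations correlated at -0.24, 0.10, -0.045 and -0.29. This cannot exclude a pairing, because the deviations also moved with GC content. With the replicate number as a block, 0 of the 32 genes and 70 of all genes were called (Dcp2 at 1.12, edgeR adjusted p of 0.147). With the block and the GC trend removed, 0 of the 32 and 364 of all genes (2.27%) were called, and the median of the 32 was -0.075.

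Some genes turned in sign. Without the GC trend these were Cnot1 -0.049, Cnot2 -0.22, Cnot4 -0.30, Cnot7 -0.39, Cnot9 -0.17, Tob2 0.11, Btg1 -0.10, Parn -0.22, Ddx6 -0.25, Lsm1 -0.0049, Lsm14a -0.098 and Eif4enif1 -0.024. With the block as well they were Cnot1 -0.068, Cnot2 -0.24, Cnot4 -0.28, Cnot7 -0.40, Cnot9 -0.18, Tob2 0.096, Btg1 -0.081, Parn -0.23, Dcp1a -0.043, Ddx6 -0.23, Patl1 -0.016, Lsm1 -0.016, Lsm14a -0.098 and Eif4enif1 -0.042, and with the block alone Dcp1a -0.040. Without the length trend they were Cnot1 -0.027, Cnot10 -0.013, Pan2 -0.064, Parn -0.049, Dcp1a -0.26, Edc3 -0.051 and Eif4enif1 -0.066. On log2(TPM + 1) they were Cnot11 0.15, Tob1 0.036, Tob2 0.036 and Pabpc1 0.0074, and on log2(TPM + 0.1) Cnot11 0.15, Tob1 0.037, Tob2 0.036 and Pabpc1 0.0074. By limma voom they were Cnot9 -0.088 and Parn -0.25, with DESeq2 size factors Parn -0.0017 and Dcp1a -0.0088, by DESeq2's Wald test Parn -0.0032 and Dcp1a -0.0081, and in thinned counts Parn -0.087 and Dcp1a -0.044. Leaving out 1 tumor gave ranges of -0.022 to 0.21 for Cnot9, -0.12 to 0.16 for Parn, -0.15 to 0.16 for Dcp1a, -0.074 to 0.14 for Edc3 and -0.031 to 0.25 for Eif4enif1. The log2 ratio of Tob1 to Tob2 was -0.0053 in thinned counts. When 1 tumor was left out the difference in log2 ratio ran from -0.11 to 0.20 for Tob1 to Tob2 and from -0.019 to 0.30 for Lsm14a to Lsm14b. The cause of these changes was not tested. The limit of depth is greatest in wild-type tumor 4, where Xrn1 rests on 66 counts.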
